A study of Mus musculus with 12 samples.

Results

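The NMDA receptor subunit genes examined here were Grin1, Grin2a, Grin2b, Grin2c, Grin2d and Grin3a, 6 genes chosen by name and found by their Ensembl identifiers among the 38924 genes in the deposited tables. All 6 passed the filter on low counts. They were measured by sequencing of polyadenylated RNA from whole brains of mice aged 6 weeks, with 1 library per mouse and 3 mice per genotype. The mutants were homozygous for 1 of 3 Rorb alleles. The background was C57BL/6J for Rorb h1/h1, B6(Cg)-Tyrc-2J/J for Rorb h2/h2, B6.129S7-Il1r1tm1Imx/J for Rorb h4/h4 and C57BL/6J for the wild type (WT). For h2 and h4, the effect of the Rorb allele and that of the background strain, which by its name carries an allele of Tyr or of Il1r1, cannot be told apart. Rorb codes for RORβ, a transcription factor of the nuclear receptor class, and the series title calls its mutants high stepper mice.

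NMDA receptors are glutamate-gated cation channels of excitatory synapses that pass calcium when glutamate binds while the cell is depolarised. Each receptor holds obligatory GluN1 subunits, encoded by Grin1, which bind glycine or D-serine, together with GluN2 subunits, which bind glutamate, or GluN3 subunits, which bind glycine. GluN2A and GluN2B predominate in the adult forebrain, GluN2C in cerebellar granule cells and some glia, and GluN2D in interneurons and the brainstem, while GluN3A is abundant in the young brain and lowers calcium entry.

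All 6 genes are protein-coding and lie on the minus strand of 6 different chromosomes in GRCm38. Grin1 (ENSMUSG00000026959) spans chr2:25291181-25319187, Grin2a (ENSMUSG00000059003) chr16:9567898-9995560 and Grin2b (ENSMUSG00000030209) chr6:135713233-136173511. Grin2c (ENSMUSG00000020734) spans chr11:115249169-115267243, Grin2d (ENSMUSG00000002771) chr7:45831883-45878378 and Grin3a (ENSMUSG00000039579) chr4:49661611-49845744. The library kit does not mark the strand, and the antisense gene Grin1os shares 1307 exonic bases with Grin1, so their reads cannot be told apart there. Grin1os was given 5.97 CPM on average (expected counts scaled to a library total of 1000000), and Grin1 was the only subunit gene whose deposited counts were fractional, which occurs when read pairs are shared among genes.

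The RefSeq promoter table (GRCm38.p6) held 3 of the 6 genes, Grin1, Grin2c and Grin2d. Because ROR receptors bind a half-site with the letters AGGTCA, the 250 bases before the annotated start of the Grin1 and the Grin2c transcript are shown, 5′ to 3′ on the minus strand, with AGGTCA and the GC box letters GGGCGG in capitals. They lie at chr2:25319188-25319437 and chr11:115267244-115267493.
Grin1: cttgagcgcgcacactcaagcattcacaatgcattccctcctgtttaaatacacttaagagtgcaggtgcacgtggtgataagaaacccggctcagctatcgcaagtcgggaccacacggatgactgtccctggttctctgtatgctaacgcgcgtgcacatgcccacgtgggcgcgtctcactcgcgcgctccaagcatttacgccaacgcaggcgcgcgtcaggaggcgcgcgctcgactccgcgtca
Grin2c: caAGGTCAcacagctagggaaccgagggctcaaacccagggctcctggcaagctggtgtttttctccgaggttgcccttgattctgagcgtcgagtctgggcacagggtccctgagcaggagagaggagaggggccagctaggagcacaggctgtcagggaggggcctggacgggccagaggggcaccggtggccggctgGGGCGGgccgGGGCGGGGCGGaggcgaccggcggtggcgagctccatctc
Grin2c held AGGTCA once, beginning 248 bases before the start, and GGGCGG 3 times on the printed strand. Grin1 and Grin2d held neither motif on either strand. Over all 32851 promoter windows of this length in the table, 14.02% held AGGTCA and 32.74% held GGGCGG on at least 1 strand, so a single match in 3 windows is a description of these letters and no more.

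Libraries held 14513825 to 24694178 expected counts, and a typical gene varied between mice of 1 genotype with a coefficient of 0.0531 after counting error. Rorb itself had 23.2, 33.1 and 22.6 CPM in h1 brains, 31.1, 31.0 and 22.6 CPM in h2 brains and 9.11, 8.65 and 8.66 CPM in h4 brains, against 18.4, 16.3 and 17.1 CPM in WT brains. It was lower in h4 (edgeR log2 fold change -0.98, SE 0.20, adjusted p = 0.0309), and no h4 library reached a WT library. This call of Rorb was lost when any 1 of the h4 or WT libraries was left out (adjusted p 0.0505 to 0.12), with log2 fold changes of -1.02 to -0.93, and with Xist as a covariate (0.0685). Every h1 and h2 library lay above WT, but neither difference passed the edgeR test, with adjusted p = 0.242 in h1 and 0.147 in h2. For h2 Rorb was called higher by DESeq2 (adjusted p = 0.0174) and by edgeR without h1 replicate 2 (0.0027) or h2 replicate 3 (0.0291). Xist, transcribed from the inactive X chromosome of females, was at 783 CPM or more in 1 h1, 1 h2, 2 h4 and all 3 WT libraries and at 1.34 CPM or less in the others. The sexes were thus unequal between genotypes. Every gene of the brain cell type lists was detected, none being at 0 in all libraries.

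In all 4 genotypes Grin1 was the most abundant subunit mRNA and Grin2d the least. On the TPM scale (which, unlike CPM, takes transcript length into account), Grin1 averaged 191 ± 7.43, Grin2b 31.1 ± 2.46, Grin2c 29.3 ± 3.26, Grin3a 16.9 ± 0.492, Grin2a 14.2 ± 0.967 and Grin2d 6.87 ± 0.693 TPM in h4 (SD, n = 3). There Grin2b (28.3 to 32.9 TPM) overlapped with Grin2c (25.7 to 32.1 TPM), and Grin3a (16.4 to 17.3 TPM) lay above Grin2a (13.1 to 14.9 TPM) with no overlap. In WT, Grin1 averaged 208 ± 8.17, Grin2b 45.1 ± 7.48, Grin2c 34.5 ± 0.725, Grin2a 18.6 ± 3.08, Grin3a 16.9 ± 0.0781 and Grin2d 6.87 ± 1.11 TPM (SD, n = 3). Each gene's libraries in WT stood apart from those of the next gene in this order, except that Grin2a (15.6 to 21.7 TPM) and Grin3a (16.9 to 17.0 TPM) overlapped. The means of h1 and of h2 had the same order as those of WT. The CPM scale is not corrected for length, and Grin2b, whose estimated transcript length was 18050 to 20010 bases over the 12 libraries, had about as many read pairs there as Grin1, whose length was 3661 to 3907 bases. The TPM of Grin1 was 6.15 times that of Grin2b in h4 and 4.62 times in WT.

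The comparisons of each mutant with WT ask which subunit mRNAs differ in each mutant, for h2 and h4 with allele and background strain combined. In h4 brains Grin1 and Grin2b were lower than in WT, Grin2b by far more. Of the 6 genes, 2 fell and none rose, while over all 16493 genes tested 4.55% were called in h4 against WT, 2.91% being lower (edgeR quasi-likelihood test, Benjamini-Hochberg adjusted p under 0.05). In h1 no subunit gene was called, against 0.625% of all genes, and in h2 none was, against 0.679% of all genes. In both, 0 of the 6 had an unadjusted p under 0.05, and DESeq2 called 0. Of all 16493 genes, 1619 in h1 and 1892 in h2 had such a p. Limma on log2(TPM + 1) called 0 of the 6 too. It called 0 of all genes in h1 and 11 in h2, so it could hardly call any of the 6.

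Grin2b, which encodes the long-tailed GluN2B subunit that binds calcium/calmodulin-dependent kinase II, had 386, 419 and 398 CPM in h1 brains, 406, 438 and 430 CPM in h2 brains and 316, 302 and 330 CPM in h4 brains, against 475, 457 and 389 CPM in WT brains. All 3 h4 libraries lay below all WT libraries, and they also lay below all libraries of h1 and of h2. The log2 fold change of Grin2b in h4 was -0.49 (SE 0.06, 95% interval -0.62 to -0.35, adjusted p = 0.000782), or 0.714 of the WT level. The WT libraries were spread more widely than the others, and the lowest of them, replicate 3, lay among the h1 libraries. The h4 brains were lower than h1 brains by 0.36 on the log2 scale (95% interval -0.50 to -0.22, adjusted p = 0.00673), and lower than h2 brains by 0.43 (interval -0.57 to -0.30, adjusted p = 0.00219). Against WT the same gene had a log2 fold change of -0.13 in h1 (interval -0.26 to 0.01, adjusted p = 0.554) and of -0.05 in h2 (interval -0.19 to 0.08, adjusted p = 0.826). The test of h4 against WT called Grin2b whichever library was left out, with log2 fold changes from -0.58 to -0.43. With only the libraries of high Xist, 2 of h4 and 3 of WT, the log2 fold change was -0.47 with adjusted p = 0.105.

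Grin1, whose product is part of every NMDA receptor, had 405, 395 and 395 CPM in h1 brains, 409, 404 and 404 CPM in h2 brains and 373, 374 and 360 CPM in h4 brains, against 406, 408 and 389 CPM in WT brains. The h4 and WT groups did not overlap, though WT replicate 3 lay closer to the nearest h4 library than to the nearest other WT library. Grin1 fell by 0.13 on the log2 scale in h4 (SE 0.04, 95% interval -0.20 to -0.06, adjusted p = 0.0346). This call was lost without WT replicate 1 or 2 (adjusted p = 0.136 each), without h4 replicate 1 (0.0598) and without h4 replicate 3 (0.141). With limma on log2(TPM + 1) Grin1 was not called against WT (adjusted p = 0.126), h1 (0.217) or h2 (0.174). All h1 and h2 libraries lay above every h4 library. Against them h4 was lower by 0.13 (adjusted p = 0.0329, h4 against h1) and by 0.14 (adjusted p = 0.0213, h4 against h2). The call against h1 was lost without any 1 of the h1 libraries, h4 replicate 1 or h4 replicate 3 (adjusted p 0.0687 to 0.158), and that against h2 without h2 replicate 1, h2 replicate 2 or h4 replicate 3 (0.0505 to 0.0991). The intervals against WT were -0.07 to 0.07 in h1 and -0.06 to 0.09 in h2.

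**Figure D1:**
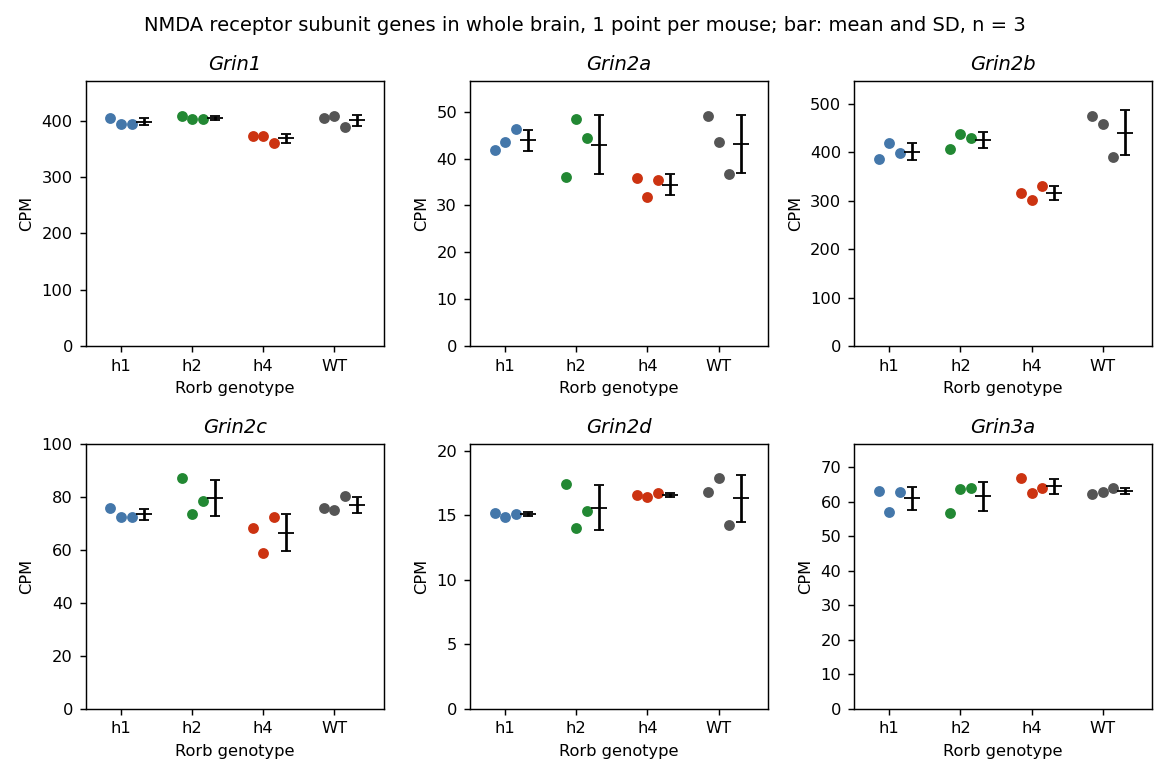
Expression of the 6 subunit genes (CPM, vertical axis from 0) in each library of h1, h2, h4 and WT; points are mice, and the bar beside them gives the mean and SD (n = 3). For Grin1, Grin2a, Grin2b and Grin2c the h4 libraries lie below all WT libraries, while Grin2d and Grin3a overlap between the genotypes and WT.

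Grin2a, the subunit gene that rises as synapses mature, had 41.8, 43.5 and 46.3 CPM in h1 brains, 36.0, 48.4 and 44.5 CPM in h2 brains and 35.9, 31.9 and 35.4 CPM in h4 brains, against 49.2, 43.5 and 36.7 CPM in WT brains. No h4 library reached a WT library, yet WT replicate 3 came within 1 CPM of the highest h4 library. The log2 fold change in h4 was -0.34 (SE 0.13, 95% interval -0.62 to -0.05), which did not pass the test over all genes (adjusted p = 0.198). Without WT replicate 3 it was -0.45 with adjusted p = 0.0298. Its log2 fold change against WT was 0.03 in h1 (interval -0.24 to 0.31) and 0.00 in h2 (interval -0.27 to 0.28). The h4 libraries were also all below those of h1 (log2 fold change -0.37, interval -0.65 to -0.09, adjusted p = 0.142) and of h2 (-0.34, interval -0.63 to -0.06, adjusted p = 0.21). The highest h4 library (replicate 1, 35.93 CPM) all but touched the lowest h2 library (replicate 1, 35.97 CPM). The difference from h1 was called in a fit of h4 and h1 alone (adjusted p = 0.000557) and without h2 replicate 1 (0.0447). Grin2a had the widest spread between mice of the 6 genes, with a coefficient of variation of 0.101 after counting error, against 0.039 for Grin3a, the narrowest.

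Grin2c had 75.8, 72.3 and 72.3 CPM in h1 brains, 87.0, 73.5 and 78.3 CPM in h2 brains and 68.3, 58.7 and 72.5 CPM in h4 brains, against 75.7, 75.0 and 80.2 CPM in WT brains. The h4 libraries were all below WT, replicate 2 most of all. The log2 fold change of Grin2c in h4 against WT was -0.22 (SE 0.07, 95% interval -0.36 to -0.08, adjusted p = 0.0726). It was called by DESeq2 (adjusted p = 0.0172), with no filter on low counts (0.00768), in a fit of h4 and WT alone (0.0453), and without h2 replicate 1 (0.0217), h2 replicate 2 (0.0429) or h4 replicate 3 (0.0203). Against h2, Grin2c was lower in h4 by 0.26 on the log2 scale (95% interval -0.40 to -0.12, adjusted p = 0.0406), and this call held only without WT replicate 3, h2 replicate 2 or h4 replicate 3 among the 12 fits that left out 1 library. It was also lost with limma (adjusted p = 0.12), in a fit of h4 and h2 alone (0.16) and with the trend over transcript length removed (0.0686). Against h1 the h4 values overlapped (log2 fold change -0.16, adjusted p = 0.182).

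Libraries of 4 of the 6 subunit genes did not overlap between h4 and WT, each with h4 lower, while 9.17% of all genes tested had h4 libraries wholly below WT. Grin2d, a gene of low expression, had 15.2, 14.9 and 15.1 CPM in h1 brains, 17.4, 14.01 and 15.4 CPM in h2 brains and 16.6, 16.4 and 16.8 CPM in h4 brains, against 16.8, 17.9 and 14.3 CPM in WT brains, and the h4 values lay inside the WT range. Its log2 fold change in h4 was 0.01 (95% interval -0.16 to 0.19). Grin3a had 63.2, 57.1 and 62.7 CPM in h1 brains, 56.8, 63.8 and 64.0 CPM in h2 brains and 66.8, 62.6 and 63.9 CPM in h4 brains, against 62.4, 62.7 and 64.1 CPM in WT brains, and every mutant overlapped with WT. Its interval in h4, -0.08 to 0.12, was among the narrowest of the 6. For Grin2d, too, h1 and h2 overlapped with WT, and the h1 libraries lay below those of h4 without overlap (log2 fold change of h4 against h1 0.12, interval -0.06 to 0.30, adjusted p = 0.491).

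**Figure D2:**
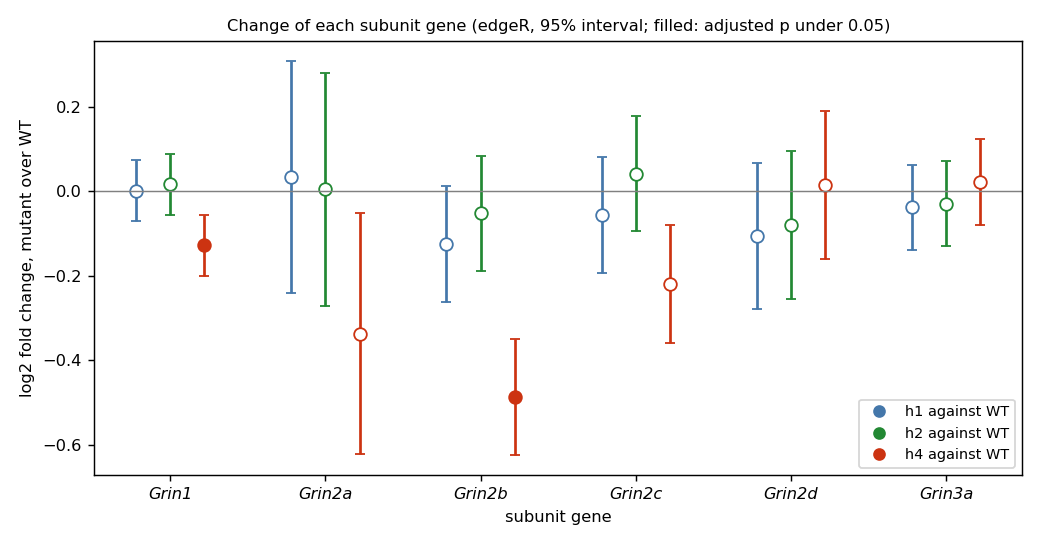
Log2 fold change of each subunit gene in h1, h2 and h4 against WT (vertical axis) with 95% intervals from the edgeR fit; filled points have an adjusted p under 0.05. The filled points are Grin1 (-0.13) and Grin2b (-0.49) in h4, and every interval of h1 and h2 includes 0.

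The comparisons between mutants ask whether the mutant groups differ from each other. Each mutant had a different background, so allele and strain cannot be told apart in these comparisons. None of the 6 genes was called between h2 and h1, where 0.722% of all genes were. In that comparison 0 had an unadjusted p under 0.05, against 1565 of all 16493 genes, and DESeq2 called 0. Limma called 0 too, but it called only 4 of all genes there. Between h4 and h1, 2 of the 6 were called (Grin1 and Grin2b, both lower in h4), against 4.64% of all genes. Between h4 and h2, 3 were called (Grin1, Grin2b and Grin2c, all lower in h4), against 3.22% of all genes. These comparisons share the h4 libraries, as the comparisons with WT share the WT libraries. In the mean of the 3 mutants against WT no subunit gene was called, while 1.1% of all genes were, and Grin2b had a log2 fold change of -0.22 (95% interval -0.33 to -0.11, unadjusted p = 0.000798, adjusted p = 0.0618). Grin2b was the 1 gene of the 6 with an unadjusted p under 0.05 in the mean, where 2061 of all 16493 genes had one. It was called there by DESeq2 (adjusted p = 0.0169), with no filter (0.0295) and without WT replicate 3 (2.49e-05). Limma did not call it, and called only 8 of all genes in the mean.

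The make-up of the subunit pool was compared on the TPM scale. The 6 genes summed to 319 ± 1.09 TPM in h1 brains, 326 ± 7.98 TPM in h2 brains and 289 ± 0.632 TPM in h4 brains, against 330 ± 18.9 TPM in WT brains (SD, n = 3). The h4 sums, 288.8 to 290.0 TPM, lay below the lowest library of any other genotype, which was WT replicate 3 at 308.5 TPM. Grin2b made up 11.1%, 9.76% and 11.4% of the sum in h4 brains, against 14.5%, 14.4% and 11.8% in WT brains. Its share was 2.85 percentage points lower in h4, with no overlap between the groups, and the 2-sided exact permutation p of 0.1 was the smallest that 3 against 3 libraries allow (adjusted p = 0.72 over the 18 shares tested). Grin3a made up 5.84% ± 0.183 in h4 and 5.14% ± 0.292 in WT, also with no overlap (exact permutation p = 0.1, adjusted p = 0.72). Its own mean was 16.9 TPM in both groups, so its higher share follows from the lower sum. Grin1 made up 66.0% ± 2.45 in h4 and 63.1% ± 1.22 in WT, with overlap (exact permutation p = 0.2), though its mean TPM was lower in h4 (191 against 208). In h1 and h2 every share overlapped with WT. None of these share tests could pass the threshold at this number of mice.

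**Figure D3:**
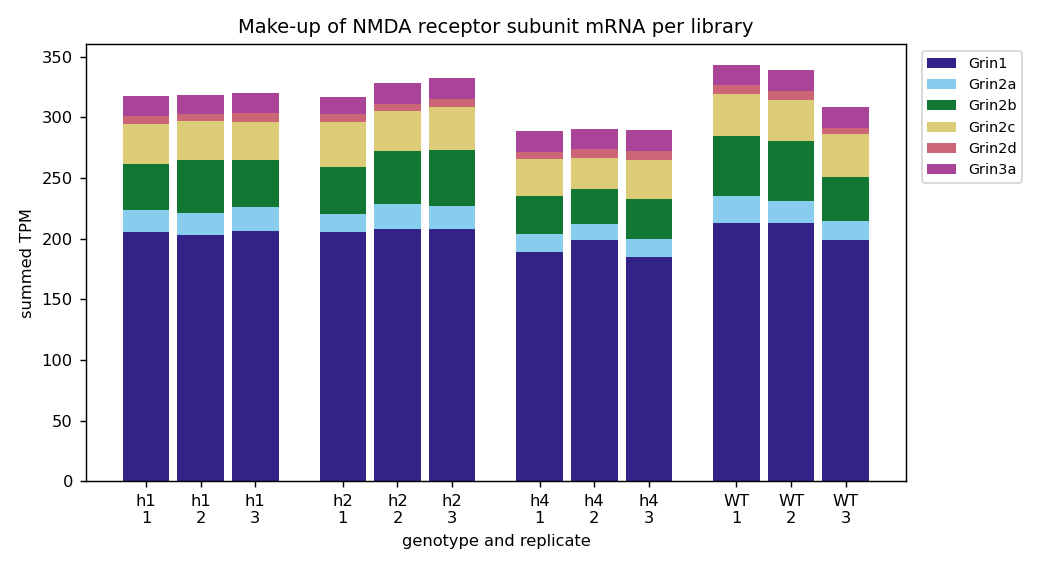
Summed TPM of the 6 subunit genes (vertical axis) in each library, h1, h2 and h4 left of WT, with 1 colour per gene. The 3 h4 bars reach 288.8 to 290.0 TPM and have the thinnest Grin2b segments (28.3 to 32.9 TPM), while WT replicate 3 is the shortest bar outside h4.

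The balance of Grin2a to Grin2b, which shifts towards Grin2a as the brain matures, was 0.466, 0.425 and 0.502 in h1 brains, 0.382, 0.473 and 0.422 in h2 brains and 0.458, 0.464 and 0.454 in h4 brains, against 0.435, 0.381 and 0.427 in WT brains, as a ratio of TPM. The h4 ratios were close together and all above WT (exact permutation p = 0.1, adjusted p = 0.3 over 3 tests). The ratios of h1 and of h2 overlapped with WT. The GluN2 genes together stood at 0.438, 0.373 and 0.472 of the Grin1 level in h4, against 0.531, 0.512 and 0.467 in WT, on the TPM scale. The highest h4 value lay just above the lowest WT value.

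Grin2a and Grin2b varied together between mice of 1 genotype. Over the 12 libraries the Pearson correlation of their levels was 0.852, and it was 0.822 between their deviations from the genotype means. Grin1 and Grin2b had a correlation of 0.863 over the libraries but of 0.23 between such deviations. Points of these correlations share their library and depth, and they are given as a description. Among 14746 genes, the levels most like Grin2b over the 12 libraries were those of Eif4g3 (r = 0.971), Atp2b2 (0.97) and Clstn2 (0.966), encoding a translation initiation factor, a plasma membrane calcium pump and a synaptic adhesion protein. Those most like Grin1 included Rlbp1 (0.95) and Mfn2 (0.948). For Grin2a they were Dnajc18 (0.948), Dpp8 (0.946) and Cacna1e (0.936), a voltage-gated calcium channel gene. For Grin2c they were Aim2 (0.932), Chtop (0.925) and Iltifb (0.921), for Grin2d Lig1 (0.861), Mrpl10 (0.848) and Podxl2 (0.838), and for Grin3a Zfp953 (0.937), Tubb6 (0.901) and Rasa3 (0.89).

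Grin2b is the longest of the 6 transcripts, and long transcripts had medians below 0 in every mutant. The 22 genes tested with an estimated length over 15000 bases had a median log2 fold change of -0.11 in h1, -0.09 in h2 and -0.10 in h4 against WT. In h4 none of these had a fold change below that of Grin2b, whereas in h1 40.9% and in h2 59.1% did. With the trend over length removed from each library, an adjustment chosen after seeing the data, Grin2b was at -0.40 in h4 (adjusted p = 1.56e-06), and the estimate in h2 was 0.05.

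**Figure D4:**
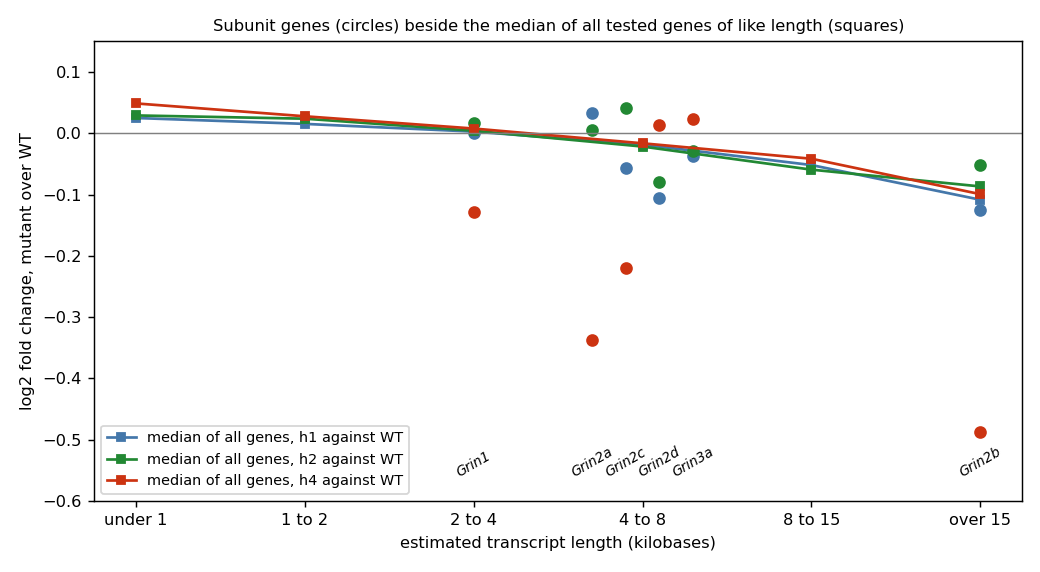
Log2 fold change against WT (vertical axis) of the 6 subunit genes (circles) and the median of all tested genes (squares joined by lines) by class of estimated transcript length in kilobases, for h1, h2 and h4. The medians descend to about -0.1 in the longest class in each mutant, and Grin2b in h4 (-0.49) lies below it.

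Genes whose products act with the receptor were examined by 5 lists. Postsynaptic scaffolds that hold NMDA receptors had the most calls in h4, where 10 of 23 fell and none rose, against 2.91% of all genes falling. The list's median log2 fold change was -0.12, and that of all genes 0.01. Dlg4, which encodes PSD-95, the scaffold that binds the tails of GluN2A and GluN2B, had 413, 432 and 432 CPM in h4 brains, against 489, 494 and 466 CPM in WT brains. The groups stood apart, and Dlg4 fell by 0.19 (SE 0.04, adjusted p = 0.00197). Dlgap3 (-0.31, adjusted p = 0.000716) and Dlgap4 (-0.27, adjusted p = 0.000959), which link PSD-95 to SHANK proteins, were also lower in h4. Shank1 had the largest fall of the list, with 179, 176 and 194 CPM in h4 brains, against 278, 299 and 221 CPM in WT brains, and others called included Shank3, Dlg2, Dlg3, Dlgap2 and Lin7a. Shank1 and these 5 were named after their values were seen. The count of 10 was 4 without WT replicate 1 or h4 replicate 1, 5 without WT replicate 2, 6 without h4 replicate 3 and 12 without WT replicate 3, and limma on log2(TPM + 1) called 5. Log2 fold changes were below 0 for 18 of 23 scaffold genes in h1, 20 in h2 and 20 in h4. Over all genes 49.8%, 48.7% and 46.8% were. The list's median was -0.04 in h1 and -0.06 in h2. EdgeR called 6 of the 23 lower in h4 against h1, where 417 of all 16493 genes were lower. Against h2 it called 3, where 277 were. Leaving out 1 library gave 0 to 7 and 1 to 7, and limma 0 and 1. No scaffold gene was called by edgeR in h1, and DESeq2 called 0. There 4 had an unadjusted p under 0.05, against 1619 of all genes. In h2 edgeR called none either, and DESeq2 called 1. There 6 had an unadjusted p under 0.05, against 1892 of all genes. Without WT replicate 3, edgeR called 4 scaffold genes lower in h1 and 4 in h2. Over all genes tested that fit called 97 lower in h1 and 226 in h2, against 34 and 56 with every library. In the mean of the mutants Dlg4, Dlgap3 and Dlgap4 were lower, against 0.612% of all genes. That count was 0 with Xist as a covariate, 0 with limma (which called 8 of all genes there) and 6 with DESeq2. It was 0 without WT replicate 1, WT replicate 2 or h1 replicate 2, 1 without h1 replicate 3 and 9 without WT replicate 3.

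Of 23 kinases and phosphatases that act on the receptor, 3 were lower in h4, against 2.91% of all genes, and the list's median was -0.07. Camk2a, the kinase that binds GluN2B, had a log2 fold change of -0.17 (adjusted p = 0.0179). Its h4 replicate 2 (1623 CPM) nevertheless lay above WT replicate 3 (1594 CPM). Prkcb, a protein kinase C gene, had a log2 fold change of -0.17 (adjusted p = 0.0149). The count of 3 was 0 without WT replicate 1 or h4 replicate 1, 1 without WT replicate 2, 0 with limma and 5 with DESeq2. Of 12 transcription factors named as regulators of subunit genes, Mef2c (-0.17, adjusted p = 0.0196) and Tbr1 (-0.19, adjusted p = 0.0341), a cortical factor that acts on Grin2b, were lower in h4 by edgeR, against 2.91% of all genes, and none was called higher. Limma on log2(TPM + 1) called neither of these, and called 1 other member higher. By edgeR no gene of this list was called without WT replicate 1, h4 replicate 1 or h4 replicate 3, and 1 was without WT replicate 2.

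Supply of the receptor's ligands was covered by the other 2 lists. Of 13 genes of glutamate release, uptake and recycling, Slc1a3, the astrocyte glutamate transporter GLAST and also a marker of the astrocyte list, was higher in h4, with 812, 808 and 809 CPM, against 704, 717 and 748 CPM in WT (log2 fold change 0.15, adjusted p = 0.00422), while 1.64% of all genes were higher. For this list in h4 limma called 0 genes, and DESeq2 called 1 higher and 3 lower. In h2 Slc38a2, a glutamine transporter, was lower (-0.28, adjusted p = 0.00566), against 0.34% of all genes. It was not called without WT replicate 1 or with limma, which called only 11 of all genes in h2. Of 15 tested genes of glycine and D-serine supply edgeR called none in h4 (3 had an unadjusted p under 0.05, and DESeq2 and limma called 0), where Psat1, an enzyme of serine synthesis, had a log2 fold change of 0.03. In h1 Psat1 was higher (0.21, adjusted p = 0.00229), against 0.418% of all genes. Limma did not make this call, but it called 0 of all genes in h1.

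**Figure D5:**
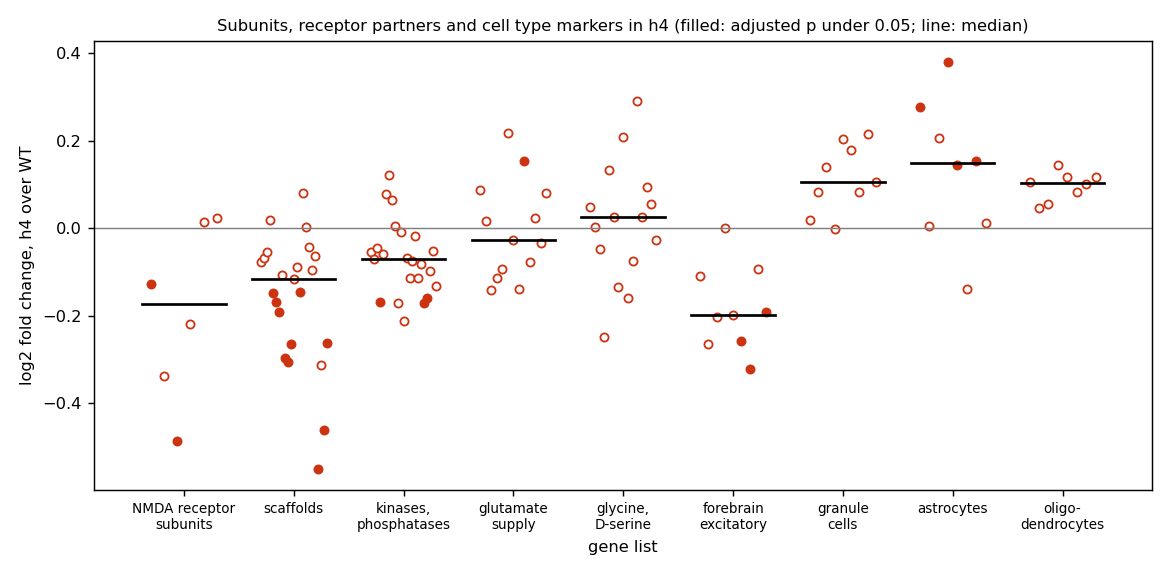
Log2 fold change in h4 against WT (vertical axis) of the subunit genes, the receptor's partner lists and the marker lists of 4 cell types; 1 point per gene, filled where adjusted p is under 0.05, with a line at the list's median. Scaffolds have 10 filled points below 0 and forebrain excitatory markers 3, while 4 astrocyte markers are filled above 0.

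Markers of forebrain excitatory neurons, which carry much of the brain's Grin2a and Grin2b, also differed in h4. Their summed level was 1250 to 1340 TPM in h1 brains, 1290 to 1310 TPM in h2 brains and 1150 to 1240 TPM in h4 brains, against 1320 to 1450 TPM in WT brains. Of 9 such markers 3 fell in h4, against 2.91% of all genes, among them Nrgn (-0.26, adjusted p = 0.00588) and Tbr1, and the list's median log2 fold change was -0.20. Pan-neuronal markers summed to 4820 to 4880 TPM in h4 and 4820 to 5110 TPM in WT, and edgeR called none of 8, with 4 at an unadjusted p under 0.05. Granule cell markers, beside Grin2c, summed to 491 to 651 TPM in h4 and 511 to 574 TPM in WT, with none of 9 called by edgeR, 2 at an unadjusted p under 0.05 and a median of 0.11. Of 8 astrocyte markers 4 were higher in h4, against 1.64% of all genes, including Gfap (0.38, adjusted p = 0.00172), and their summed level was 2520 to 2540 TPM in h4 and 2420 to 2540 TPM in WT. Oligodendrocyte markers summed to 12100 to 12600 TPM in h1, 10300 to 11600 TPM in h2 and 10500 to 11300 TPM in h4, against 9640 to 10700 TPM in WT. Of these 8 markers 6 were called higher in h1 against WT, where 0.418% of all genes were. In h2 against WT 1 was called higher, where 56 of all 16493 genes tested were. None was called in h4 against WT, where all 8 had log2 fold changes above 0 and 4 an unadjusted p under 0.05. Against h1, 6 were called lower in h4, where 417 of all 16493 genes were. The part of these cell populations in the subunit changes was not tested, and in whole brain fewer cells of a type and less RNA per cell cannot be told apart.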

How the data were processed

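Per the labels' protocols, poly(A) libraries were made with an unstranded TruSeq v2 kit and read as paired ends. The design text gives 3 mice for each genotype, and p-values therefore measure the spread between animals. Bowtie2 2.2.0 and RSEM 1.2.12 are named in the submitters' processing notes, with the annotation not given in the sources used here. Expected counts, as deposited, are estimates per gene, of which 77.7% of those above 0 were whole as printed, and the TPM deposited by the authors are scaled to library and transcript length. Gene names, positions and overlaps came from GENCODE M21 (GRCm38), which held 37607 of the 38924 identifiers.

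Expected counts were rounded and tested with edgeR 4.0.16 (R 4.3.3; quasi-likelihood, robust, TMM) in 1 model of all 12 libraries. The filter on low counts left 16493 genes and removed 22431. Alternatives used DESeq2 1.42.0, limma 3.58.1 on log2(TPM + 1), other scaling, no filter, an Xist covariate, subsets of libraries and a length correction. On simulated data for h4 against WT with 16493 genes, 76 of 100 genes changed 1.3-fold and 99 of 100 changed 2-fold were recovered. There 11 unchanged genes were also called. Each simulated gene had the spread typical of its expression level, while some real genes, such as Grin2a, vary more and others less. Differences of sex were not simulated, so recovery under these conditions was not measured. CPM are expected counts scaled to a library total of 1000000. Shares and ratios had 2-sided exact permutation tests.

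The subunit genes and lists were chosen with earlier results of these data known. The rule for names took the 6 genes, up to 4 called members of each list by smallest adjusted p, and the genes most correlated with each subunit gene. Further scaffold genes and markers were named after their values were seen. No set test was made. Some genes of the lists are counted but their own values are not reported here.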

Additional observations from a re-analysis of the deposited data

How the results depend on the processing

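The lower level of Grin2b in h4 against WT, against h1 and against h2 was called in all 12 fits that left out 1 library. Against WT it was called in 7 of the 8 other alternatives, the exception being the fit of libraries with high Xist. Against h1 and against h2 it was not called with limma on log2(TPM + 1), with adjusted p = 0.145 and 0.0873. Precision rests on 3 mice per genotype, and changes of about 1.3-fold were not always recovered in simulation.

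The number of subunit genes called moved as follows. With DESeq2 and with no filter it was 1 in the mean of the mutants and 3 for h4 against WT. A fit of the groups compared alone gave 3 for h4 against WT, 3 for h4 against h1 and 2 for h4 against h2, and removing the length trend gave 2 for h4 against h2. With limma on log2(TPM + 1) it was 1 for h4 against WT and 0 for h4 against h1 and h4 against h2. With only libraries of high Xist it was 1 for h4 against WT, and that gene was Grin1, not Grin2b. Leaving out single libraries gave 1 to 3 for h4 against WT, against h1 and against h2, and 0 to 1 for h1 against WT and for the mean. Without WT replicate 3 the gene called in h1 against WT was Grin2b (adjusted p = 0.0137). The share of Grin2b in h4 was 5.78 percentage points below WT (-5.78) with CPM in place of TPM, and that of Grin3a was 1.35 points above WT, against 0.707 with TPM.

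Counts over all genes moved by more than 1.5 times in these cases. DESeq2 called 183 genes for h2 against h1, and a fit of the groups compared alone called 193. With no filter the counts were 236 for h1, 288 for h2 and 373 for the mean against WT, 290 for h2 against h1 and 844 for h4 against h2. With limma on log2(TPM + 1) they were 0 for h1, 11 for h2, 152 for h4 and 8 for the mean against WT, 4 for h2 against h1, 107 for h4 against h1 and 121 for h4 against h2. With Xist as a covariate they were 27 for h1, 70 for h2 and 59 for the mean. Leaving out single libraries gave 22 to 166 for h1, 18 to 348 for h2, 230 to 1111 for h4 and 18 to 505 for the mean against WT, 44 to 160 for h2 against h1, 313 to 896 for h4 against h1 and 251 to 619 for h4 against h2. The lowest count for h2, h4 and the mean came without WT replicate 1 and the highest without WT replicate 3.

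The titles number the h1 and h2 mice alike. Deviations of same-numbered h1 and h2 libraries from their genotype means had correlations of -0.147, -0.112 and 0.028. Those of differently numbered libraries ran from -0.165 to 0.247, so no pairing by number was seen. With so few mice per genotype, and with some same-numbered mice differing in Xist, these correlations cannot exclude a pairing. A fit of h1 and h2 alone with the number as a replicate block called 204 genes for h2 against h1, and no subunit gene. Without the block such a fit called 193, and the fit of all 12 libraries called 119.

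Only small fold changes that had not been called changed sign. DESeq2 gave -0.0010 for Grin1 in h1 and -0.0063 for Grin2a in h2, and the RLE scaling gave -0.0008 for Grin1 in h1. Limma on log2(TPM + 1) gave -0.0224 for Grin1 in h1, -0.0075 for Grin1 and -0.0267 for Grin2a in h2, -0.0017 for Grin3a in h4 and -0.0333 for Grin2d in h2 against h1. The Xist covariate gave -0.0009 for Grin1 in h1, -0.0057 for Grin2d in h4, and 0.0110, 0.0152 and 0.0234 for Grin3a in h1, h2 and the mean. Removing the length trend gave 0.0474 for Grin2b in h2 and 0.0092 and 0.0213 for Grin3a in h2 and the mean.

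Leaving out single libraries spanned 0 for these. In h1 against WT Grin1 ran from -0.0274 to 0.0123, Grin2a from -0.0754 to 0.1406 and Grin3a from -0.0625 to 0.0042. In h2 against WT Grin1 ran from -0.0108 to 0.0281, Grin2a from -0.1033 to 0.1112, Grin2b from -0.1401 to 0.0081, Grin2c from -0.0235 to 0.0932 and Grin3a from -0.0599 to 0.0157. In h4 against WT Grin2d ran from -0.0797 to 0.0833 and Grin3a from -0.0106 to 0.0366. In h2 against h1 Grin2a ran from -0.1265 to 0.0688, Grin2d from -0.0512 to 0.0974 and Grin3a from -0.0354 to 0.0548. In the mean Grin2a ran from -0.2087 to 0.0072 and Grin2d from -0.1497 to 0.0123. The cause of these moves was not tested.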
